A study of Mus musculus with 6 samples.

Results

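Solute carriers are the membrane proteins that move small molecules across cell membranes without spending ATP directly, and their Slc family numbers follow structure and substrate. Here they were taken as the genes of all probes whose platform annotation gives exactly 1 symbol beginning with Slc and a digit, with the mitochondrial Slc25a carriers left out. The rule found 38 genes on 53 probes, of 3939 genes with 1 symbol on the array. By family they fell into 8 substrate classes: 1 phosphate transporter, 3 sugar transporters, 10 for amino acids and amines, 2 for monocarboxylates, 6 for metals, 7 for inorganic ions, 3 for nucleosides and nucleotide sugars, and 6 for vitamins, lipids and others. One of the 38, Slc9a3r1, carries the name of a carrier but encodes a scaffold protein that binds a sodium-proton exchanger. Of the 38 genes, 26 had 1 probe and 12 had 2 or more, and 29 had a value on all 6 arrays.

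The samples were mouse skeletal muscle paced electrically for 3 h by an implanted stimulator and taken 0 h, 1 h, 3 h, 8 h or 24 h after stimulation ended, and sham-operated muscle whose implanted pacer stayed inactive, taken at the time of the 0 h muscle. Each of the 6 groups had 1 array with 2 channels, which set total RNA of the muscle against one reference RNA, Pre, from control muscle. The labels used here give no strain, age, sex, muscle or number of mice. Sham matched 0 h alone in time, so a difference from sham at 1 h, 3 h, 8 h or 24 h mixes pacing with elapsed time. The sham array also differed in form, being the 1 array with empty cells (485), and every difference from sham carries that. With 1 array per group no value has a replicate error and no difference was tested. For some values of genes with several probes the SD between them is given, and a value without it may also rest on several probes. This SD shows how well spots for 1 gene matched, not how mice varied.

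In resting and working muscle, solute carriers set how fast glucose enters the fibre, how fast lactate leaves it, and how amino acids, phosphate and metals are shared with the blood. Contraction is known to bring the glucose transporter GLUT4, encoded by Slc2a4, to the fibre surface, and lactate moves through the monocarboxylate transporters encoded by Slc16a1 and Slc16a3. Those steps act largely on protein location, whereas the arrays measured transcripts.

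Values are log2 ratios of a muscle sample to Pre, with each array centred on its median; 1 unit is a 2-fold change and 0 is the level of Pre. A ratio holds no absolute level, so levels of different genes cannot be set against each other and the tissue could not be checked by the presence of its markers. The dyes are not stated, and every direction assumes that the muscle sample is the numerator. The arrays differed in spread, with robust SDs over all probes from 0.176 after 1 h to 0.495 in sham, so the same ratio is further from the bulk of genes after 1 h than after 3 h (robust SD 0.445). A gene counted as called at an absolute log2 difference of 1 or more, taken from sham unless Pre is named. Of the 53 probes, between 45 (0 h and 3 h) and 51 (sham and 8 h) were measured on an array.

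**Figure D1:**
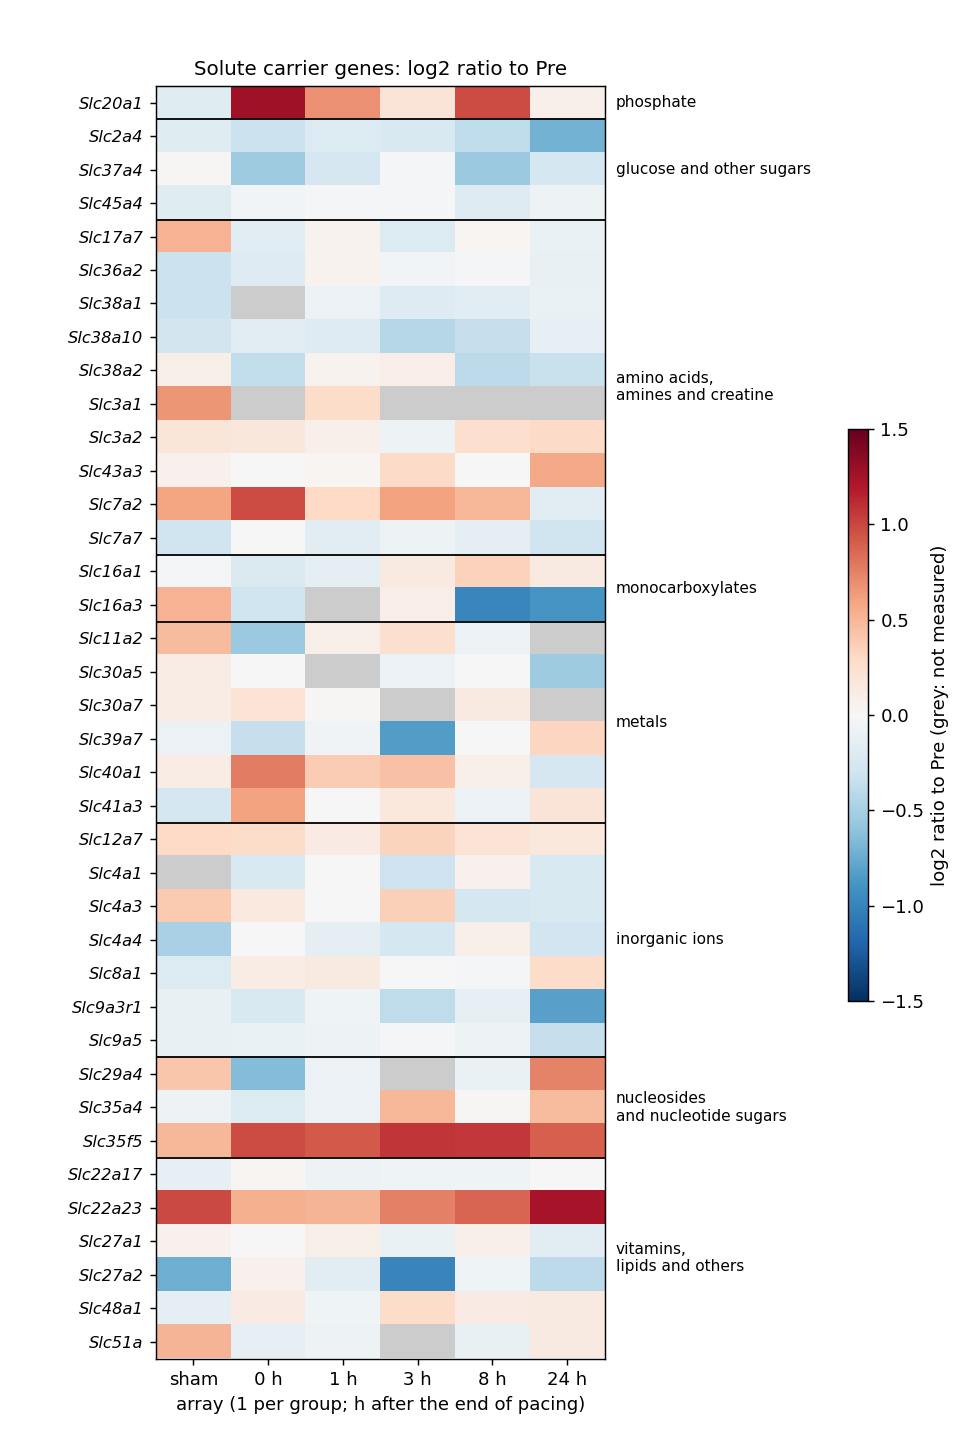
Log2 ratio to Pre (colour) of the 38 solute carrier genes (rows, grouped by substrate class) on the 6 arrays (columns: sham, then h after the end of pacing); grey cells were not measured. Slc20a1 was highest at 0 h (1.28), Slc35f5 was red on all 6 arrays, and Slc16a3 was lowest at 8 h (-0.98) and 24 h (-0.88).

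Of the 37 carriers with a sham value, 4 (10.8%) were at least 2-fold from sham at 1 or more times, Slc20a1 higher and Slc16a3, Slc11a2 and Slc29a4 lower. Of all 3822 genes with a sham value and at least 1 paced value, 12% were called at 1 or more times. At 0 h, 3 of the 35 measured genes (8.57%) were called, 1 higher and 2 lower, against 6.5% of all 3586 genes measured on both arrays (3.43% higher and 3.07% lower). At 1 h none of 35 was called, against 1.54% of all genes, and at 3 h none of 33, against 2.43%. At 8 h, 2 of 36 (5.56%) were called, 1 higher and 1 lower, against 3.66% (1.79% higher and 1.87% lower). At 24 h, 1 of 34 (2.94%) was called, lower, against 5.98% (3.09% higher and 2.89% lower). With at most 3 carriers called at a time, these shares were near the background. At 1.5-fold the counts were 9 of 35 at 0 h (24.7% of all genes), 1 of 35 after 1 h (12.2%), 2 of 33 after 3 h (11.5%), 5 of 36 after 8 h (18.9%) and 6 of 34 after 24 h (22.7%).

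The carriers' median difference from sham was close to that of all genes at each time. Among the 29 genes measured on all 6 arrays, the median log2 difference from sham was 0.01 at 0 h, 0.03 after 1 h, 0.06 after 3 h, 0.03 after 8 h and 0.13 after 24 h, where that of all 3180 such genes was 0.04, 0.03, 0.02, 0.06 and 0.08. Above sham stood 16 of 35 carriers at 0 h (54.1% of all genes), 18 of 35 after 1 h (53.4%), 19 of 33 after 3 h (53.1%), 18 of 36 after 8 h (56.4%) and 19 of 34 after 24 h (57.8%). The span from the 5th to the 95th percentile of all genes by definition leaves out only 5% of genes at each end. Of the carriers it held 32 of 35 at 0 h, 34 of 35 after 1 h and 31 of 33 after 3 h. After 8 h it held 34 of 36 and after 24 h 33 of 34. These counts are near the share that the span holds of all genes, so they do not set the carriers apart.

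**Figure D2:**
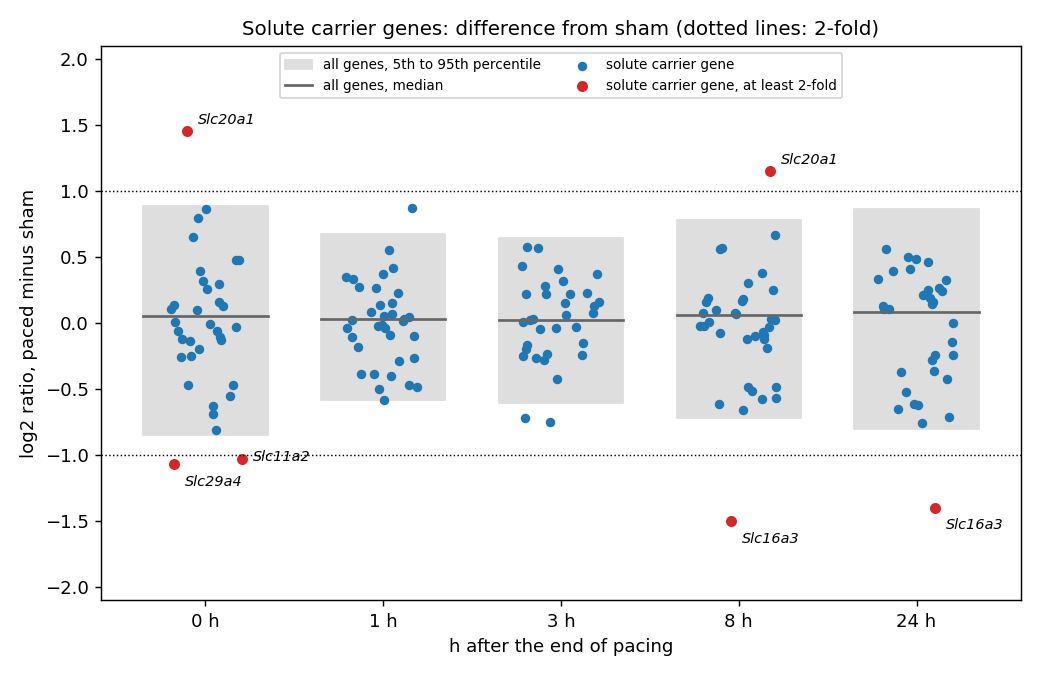
Log2 ratio on each paced array minus that on the sham array (vertical axis) against h after the end of pacing, 1 point per solute carrier gene; grey boxes span the 5th to 95th percentiles of all genes measured on both arrays, grey lines their medians, and dotted lines 2-fold. The red points are Slc20a1 at 0 h (1.45) and 8 h (1.15), Slc11a2 (-1.03) and Slc29a4 (-1.07) at 0 h, and Slc16a3 after 8 h and 24 h (-1.40), its 8 h point being the lowest in the plot.

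Slc20a1 and Slc16a3 were called at 2 times each, in opposite directions, and their upstream sequences are shown because no other carrier was called from sham more than once. The sequences are the 250 bases before each start annotated by RefSeq (GRCm38.p6), for 2 starts of Slc20a1 and 1 of Slc16a3; the probes do not tell which start was used. Capitals mark TGACG (a half-site of the cAMP response element), CACGTG (an E-box) and GGGCGG (a GC box bound by Sp1), chosen after the values were seen and searched on both strands, and no 2 matches overlapped.
Slc20a1, chr2:129198523-129198772, plus strand: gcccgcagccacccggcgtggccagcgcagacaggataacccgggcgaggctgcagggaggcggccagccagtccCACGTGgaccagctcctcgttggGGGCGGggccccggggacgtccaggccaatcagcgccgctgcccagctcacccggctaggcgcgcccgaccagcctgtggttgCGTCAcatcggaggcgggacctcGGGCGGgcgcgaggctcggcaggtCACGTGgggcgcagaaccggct
Slc20a1, chr2:129206846-129207095, plus strand: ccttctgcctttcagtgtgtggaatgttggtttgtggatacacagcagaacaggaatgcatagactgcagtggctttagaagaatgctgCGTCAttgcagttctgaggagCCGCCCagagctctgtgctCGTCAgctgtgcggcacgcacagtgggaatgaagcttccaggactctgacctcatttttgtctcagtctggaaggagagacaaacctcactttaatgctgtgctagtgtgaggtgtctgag
Slc16a3, chr11:120948817-120949066, plus strand: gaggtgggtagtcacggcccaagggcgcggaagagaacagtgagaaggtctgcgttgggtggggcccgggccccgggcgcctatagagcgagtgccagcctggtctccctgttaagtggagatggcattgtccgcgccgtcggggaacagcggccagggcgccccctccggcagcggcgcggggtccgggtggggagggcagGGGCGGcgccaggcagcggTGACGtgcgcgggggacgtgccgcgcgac

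The first Slc20a1 stretch, at 75.2% G and C, held 2 E-boxes, 2 GC boxes and 1 cAMP half-site, and the second, at 50.8%, held 2 half-sites and 1 GC box. The Slc16a3 stretch, at 73.6%, held 1 half-site and 1 GC box. Among all 32851 promoter stretches of this length in the RefSeq table, 17.8% held TGACG, 6.02% held CACGTG, 32.7% held GGGCGG and 12.4% held the TATA box TATAAA, which none of the 3 shown held. That promoter table held 39 stretches for 27 of the 38 carriers. Of these stretches 10 held TGACG (25.6%), 7 CACGTG (17.9%), 28 GGGCGG (71.8%) and 3 TATAAA (7.69%). The shares over all stretches are not limited to genes on the array, and no difference from them was tested. These are matches of letters and do not show binding.

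Slc20a1, the sodium-phosphate cotransporter that takes up inorganic phosphate in many tissues, gave the highest values of the group right after pacing. Its gene mean against Pre was -0.18 in sham, 1.28 at 0 h, 0.69 after 1 h, 0.20 after 3 h, 0.98 after 8 h and 0.08 after 24 h, so all 5 paced arrays stood above both Pre and sham. The difference from sham was 1.45 at 0 h (2.74-fold) and 1.15 after 8 h (2.22-fold), which put the gene at rank 24 of 3586 genes from the highest at 0 h and 35 of 3794 after 8 h. At 1 h the difference of gene means was 0.87, rank 68 of 3698. On the 2 probes measured on both the 1 h and sham arrays the difference was 0.60 (probe SD 0.78). Slc20a1 was the 1 carrier at least 2-fold above both sham and Pre at any time, at 0 h, where 0.53% of all genes met both conditions. With zeros and shared values kept, its 0 h value against Pre was 0.85, short of that mark. With arrays scaled to a common spread, Slc20a1 passed both marks at 1 h (1.36 against Pre) and 8 h (1.52 from sham and 1.40 against Pre) too. Slc35f5 then passed both as well, at 1 h (1.44 from sham and 1.79 against Pre) and 8 h (1.18 and 1.52), so Slc20a1 was not the 1 such carrier under that setting.

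The 3 Slc20a1 probes did not tell one story. Probe 7674 stood at 0.10 in sham, then 1.78 at 0 h, 1.25 after 1 h, 1.67 after 3 h, 1.49 after 8 h and 0.94 after 24 h, above sham by 0.84 or more throughout. Probe 9706 stood at 0.09 in sham and 0.77 at 0 h, but at 0.13, 0.14, 0.31 and 0.15 at the later times, close to its sham value. Probe 7961 stood at -0.72 in sham, was not measured at 0 h and 1 h, and read -1.21 after 3 h, 1.13 after 8 h and -0.86 after 24 h. At 0 h the call therefore rests on 2 probes, whose mean difference from sham was 1.18 with a probe SD of 0.70 (2.27-fold). At 3 h the probes ranged from -0.49 to 1.57 (probe SD 1.07), so the low mean there, 0.37, joins spots that point opposite ways. At 8 h all 3 stood above sham, by 0.22 to 1.84 (mean 1.15, probe SD 0.84). Which part of the transcript each probe binds is not given in the sources used here.

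Xpr1, which encodes the phosphate exporter and was the other phosphate transporter gene listed for comparison, was not called. It had 1 probe, at -0.71 in sham, -0.17 at 0 h, -0.24 after 1 h, -0.27 after 3 h, -0.78 after 8 h and -0.34 after 24 h. It was thus below Pre on all arrays, with its largest difference from sham, 0.54, at 0 h. Of 5 listed phosphate and creatine genes 4 were on the array, and none was called at any time.

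**Figure D3:**
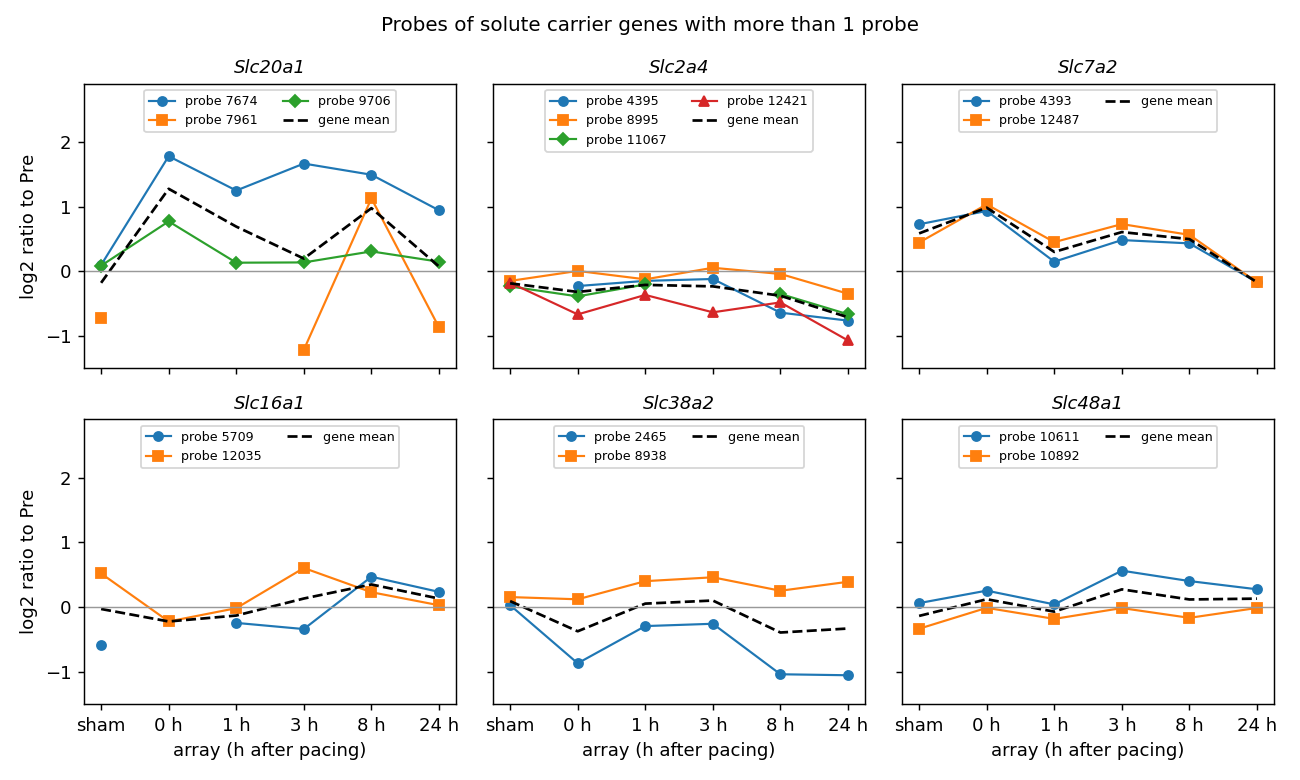
Log2 ratio to Pre (vertical axis) of each probe of 6 carriers with more than 1 probe, on the sham array and at each time after pacing; dashed lines are the gene means, and gaps were not measured. The 2 probes of Slc7a2 run together, whereas those of Slc20a1 at 3 h span -1.21 to 1.67 and those of Slc38a2 at 24 h span -1.05 to 0.39.

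The gene means of the 3 sugar carriers sat below Pre on every paced array, and 2 of the 3 were below Pre in sham as well. Against sham, Slc2a4 and Slc37a4 were lower on all 5 paced arrays, whereas Slc45a4 was higher on 4 of 5. Slc2a4, which encodes GLUT4, the glucose transporter of muscle and fat that responds to insulin and contraction, stood at -0.19 in sham, -0.32 at 0 h, -0.21 after 1 h, -0.23 after 3 h, -0.38 after 8 h and -0.71 after 24 h. All 4 of its probes were below Pre at 24 h, at -0.35, -0.66, -0.76 and -1.07, the lowest array for each of them. The 3 probes measured on both arrays differed from sham by -0.51 at 24 h (probe SD 0.35), short of 2-fold; at 1 h the mean was -0.04 (probe SD 0.13).

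Slc37a4, which carries glucose 6-phosphate into the endoplasmic reticulum, was lowest at 0 h (-0.54) and 8 h (-0.56), against 0.015 in sham; on the other paced arrays it read -0.25 after 1 h, -0.01 after 3 h and -0.27 after 24 h. It had the widest range of the sugar class, 0.58. Slc45a4, of a family of proton-linked sugar carriers, kept between -0.20 and -0.02 on the paced arrays, against -0.18 in sham. Of 13 listed genes for GLUT4 traffic and hexose use, 9 were on the array and none was 2-fold from sham at any time. Among them Tbc1d1, a Rab regulator that acts on GLUT4 vesicles, read 1.34 at 24 h, against 0.52 in sham (2 probes on the array), and Hk2, the muscle hexokinase, read 0.17 at 24 h, against 0.50 in sham.

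Of the monocarboxylate carriers, Slc16a3, which encodes MCT4, the lactate exporter of glycolytic fibres, was lower than sham on every paced array that measured it. Its single probe read 0.52 in sham, -0.29 at 0 h, 0.10 after 3 h, -0.98 after 8 h and -0.88 after 24 h, and was not measured after 1 h. The level at 8 h was 0.354 times that in sham and at 24 h 0.379 times (log2 -1.40), rank 13 of 3794 and rank 28 of 3597 from the lowest. Against Pre neither value reached 2-fold, and the sham value was itself above Pre. Once arrays were scaled to a common spread, the 8 h value against Pre was past 2-fold (-1.40) and the 24 h value was not (-0.76).

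Slc16a1, which encodes MCT1, a lactate and pyruvate transporter of oxidative fibres, read -0.03 in sham, -0.22 at 0 h, -0.13 after 1 h, 0.13 after 3 h, 0.35 after 8 h and 0.13 after 24 h. The 0 h value rests on 1 of its 2 probes, whose own difference from sham was -0.74. The 2 probes disagreed in sham, at 0.52 and -0.58, and so did their differences from sham at 8 h, at -0.29 and 1.05 (probe SD 0.95). The gene therefore had no steady direction. Bsg, the membrane partner that both transporters need to reach the cell surface, stood at -0.68 at 24 h, against 0.01 in sham, and between -0.38 and 0.01 on the other paced arrays, with no call. Of 8 listed partner and pump genes 4 were on the array; Atp1b1, a sodium pump subunit, had the largest differences from sham, -0.93 at 0 h and -0.88 at 24 h, and none of the 4 was called; scaled to a common spread, Atp1b1 passed 2-fold at 0 h (-1.05).

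The class of amino acid and amine carriers, drawn up by family and the largest with 10 genes, had no call. Slc7a2, which takes up arginine and lysine, had the widest range of them, 1.15. Its gene mean was 0.59 in sham, 0.98 at 0 h, 0.30 after 1 h, 0.61 after 3 h, 0.50 after 8 h and -0.17 after 24 h. Its 2 probes matched closely at the extremes, reading 0.93 and 1.03 at 0 h and both -0.17 at 24 h. The difference from sham was 0.40 at 0 h (probe SD 0.27) and -0.76 at 24 h (probe SD 0.20), the lowest of the class at that time. At 1 h it was -0.29 (probe SD 0.41), and 0.18 with arrays scaled to a common spread.

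Slc38a2, which carries small neutral amino acids such as glutamine with sodium and is known to respond to amino acid shortage, gave a different answer on each of its probes. Probe 2465 read 0.03 in sham, -0.87 at 0 h, -0.29 after 1 h, -0.26 after 3 h, -1.04 after 8 h and -1.05 after 24 h. Probe 8938 read between 0.12 and 0.46 on the paced arrays, against 0.16 in sham. Their mean difference from sham, -0.42 at 24 h, had a probe SD of 0.93. Slc38a1, its close relative, kept between -0.19 and -0.09 on 4 paced arrays, against -0.32 in sham.

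Slc3a2, the heavy chain that brings several amino acid exchangers to the membrane, stayed between -0.07 and 0.29 on the paced arrays, against 0.18 in sham, and its light chain partner Slc7a7 between -0.30 and -0.01, against -0.30 in sham. Slc17a7, a vesicular glutamate transporter of nerve endings, was below sham on all 5 paced arrays, by 0.47 to 0.72 in log2 units, reading between -0.20 and 0.05 after pacing, against 0.52 in sham. Slc43a3, placed in this class by family alone, read 0.57 at 24 h, against 0.07 in sham. The others, Slc36a2 and Slc38a10, differed from sham by at most 0.37 in size, and Slc3a1 was measured only at 1 h (0.27) and in sham (0.66).

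Of 9 listed genes of the amino acid response, 4 were on the array. Atf4, its central transcription factor, stood above sham on all 5 paced arrays (5 probes on the array), with no call from sham. It read 1.84 at 8 h, its highest value, against 0.995 in sham. Against Pre, Atf4 was past 2-fold on all 5 paced arrays, with its lowest value, 1.15, after 1 h. Against Pre, Eif4ebp1 at 24 h (1.11) and Ddit3 at 3 h (-1.04) passed 2-fold too, as did Ddit4 at 0 h and 8 h (1.02). Ddit4, a brake on the growth kinase mTORC1, was the 1 call from sham on this list, at 2.27 at 0 h against 0.46 in sham. It had 1 probe, which was not measured at 1 h or 24 h. With arrays scaled to a common spread, differences from sham of Atf4 at 1 h (1.56) and 8 h (1.93), Ddit4 at 8 h (1.14) and Eif4ebp1, a translation repressor, at 8 h (1.14) passed 2-fold too.

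Among the metal carriers 1 of 6 was called at 0 h, Slc11a2, lower. Of all genes 6.5% were called at 0 h, 3.07% of them lower calls, and 1 call among 6 genes does not describe the class. Slc11a2, the importer of divalent iron, had 1 probe, which read 0.47 in sham, -0.55 at 0 h, 0.09 after 1 h, 0.24 after 3 h and -0.09 after 8 h, with no value after 24 h. Its difference from sham at 0 h, -1.03, was just past 2-fold, at rank 101 of 3586 from the lowest, and fell short, at -0.99, once arrays were scaled to a common spread. Slc40a1, ferroportin, the only known cellular iron exporter, stood above sham at 0 h with no call. It read 0.12 in sham, 0.77 at 0 h, 0.38 after 1 h, 0.43 after 3 h, 0.09 after 8 h and -0.26 after 24 h, and its largest difference from sham was 0.65.

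Slc41a3, of a magnesium transporter family, read 0.60 at 0 h, against -0.27 in sham, a difference of 0.87, and between -0.09 and 0.19 later. Slc39a7, which releases zinc from the secretory pathway into the cytosol, had the widest range of the class, 1.16: it read -0.09 in sham, -0.34 at 0 h, -0.06 after 1 h, -0.84 after 3 h, -0.01 after 8 h and 0.32 after 24 h. Slc30a5 and Slc30a7, which load zinc into the secretory pathway, stayed within 0.21 of Pre on the paced arrays apart from Slc30a5 at 24 h (-0.54, against 0.11 in sham).

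Of 8 listed metal handling genes, 5 were on the array. Tfrc, the transferrin receptor (2 probes on the array), stood below sham on each paced array. It was called lower at 8 h (-1.14 from sham) and 24 h (-1.04 from sham). Mt1, a metallothionein that binds zinc, had 1 probe and was called higher, with differences from sham of 2.24 at 0 h, 2.27 at 8 h and 2.70 at 24 h. Mt1 was not called at 1 h (-0.42 from sham, 0.47 against Pre) or 3 h (-0.01 from sham, 0.88 against Pre). Mtf1, the zinc sensor that drives metallothionein genes, was called lower at 24 h (-1.10 from sham, 1 probe). Slc48a1, a heme carrier classed by family among the others, was above sham on all 5 paced arrays on its gene mean, by 0.07 to 0.41, with a probe SD of 0.08 to 0.13 (2 probes); at 1 h it was -0.04 with arrays scaled to a common spread. Under that scaling the differences from sham of Tfrc at 24 h (-0.99) and Mtf1 at 24 h (-0.91) fell short of 2-fold. Those of Tfrc passed it at 0 h (-1.12) and 1 h (-1.42).

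**Figure D4:**
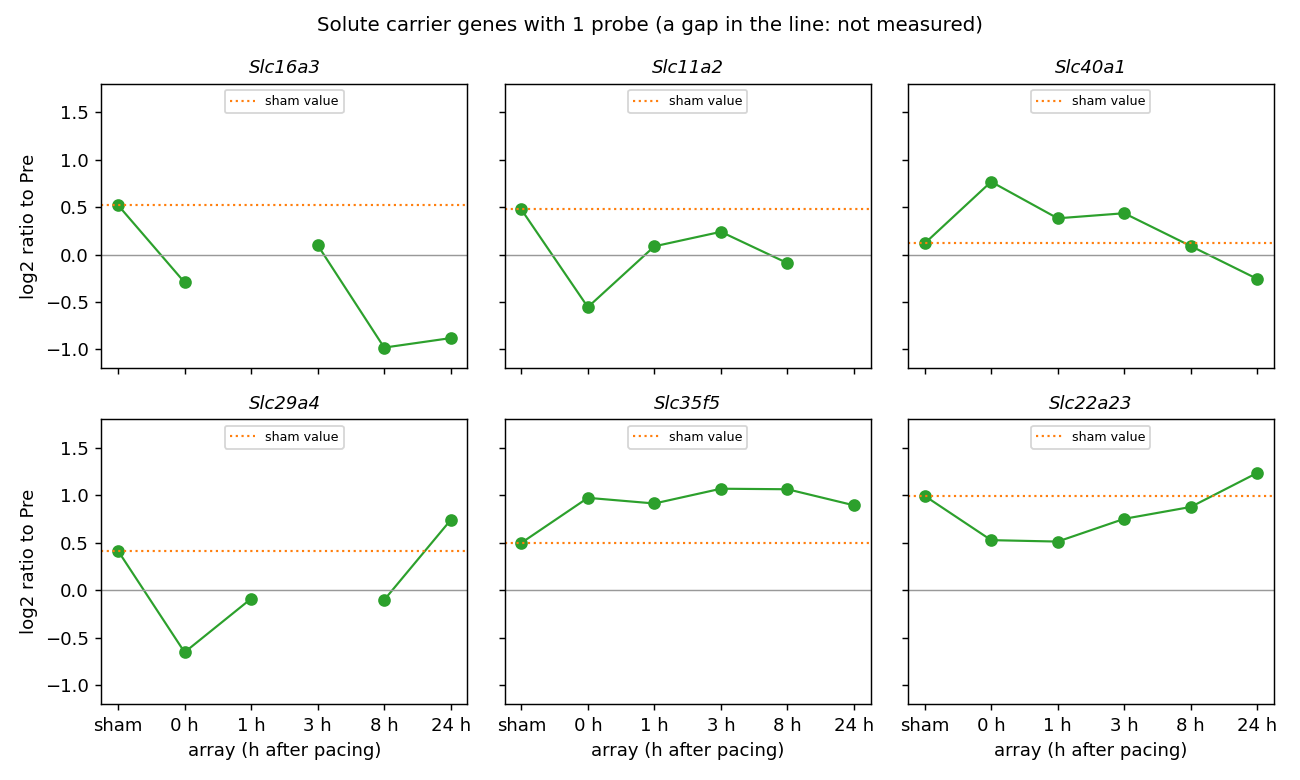
Log2 ratio to Pre (vertical axis) on the sham array and at each time after pacing for 6 carriers with 1 probe; orange dotted lines mark the sham value and gaps were not measured. Slc16a3 lies below its sham value of 0.52 wherever measured, Slc35f5 above its sham value of 0.50 on all paced arrays, and Slc11a2 (-0.55) and Slc40a1 (0.77) part at 0 h.

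Carriers of inorganic ions had no call among the 6 of 7 genes with a sham value. Slc8a1, the sodium-calcium exchanger of the plasma membrane, was above sham on all 5 paced arrays on its gene mean, by 0.19 after 8 h to 0.48 after 24 h (2 probes, probe SD 0.24 after 24 h). At 3 h its probes differed from sham by -0.14 and 0.58 (probe SD 0.51). Slc4a3, a chloride-bicarbonate exchanger, lay below sham by 0.66 in log2 units at 8 h and 0.62 at 24 h (2 probes, probe SD 0.15 at both), with 0.39 in sham. At 3 h its difference was -0.04, with the probes at -0.22 and 0.14 (probe SD 0.25), and 0.00 with arrays scaled to a common spread. Slc4a4, a sodium-bicarbonate cotransporter, stood above sham by 0.19 to 0.57 on gene means, but 1 of its 2 probes was measured in sham alone; on the shared probe the differences were 0.00 to 0.38.

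The scaffold gene Slc9a3r1 had the widest range of that class, 0.76, reading -0.11 in sham, -0.23 at 0 h, -0.06 after 1 h, -0.38 after 3 h, -0.13 after 8 h and -0.82 after 24 h. Slc9a5, a sodium-proton exchanger, and Slc12a7, a potassium-chloride cotransporter, differed from sham by at most 0.24 in size. Slc4a1, the anion exchanger of red blood cells, had no sham value and read between -0.31 and 0.06 after pacing; Hba-a1, the haemoglobin gene on the red cell list, kept between -0.31 and 0.01 on the paced arrays, against 0.13 in sham.

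Among the nucleoside and nucleotide sugar families, Slc35f5, for which no substrate is given here, was high throughout. Its 1 probe read 0.50 in sham, 0.97 at 0 h, 0.91 after 1 h, 1.07 after 3 h, 1.06 after 8 h and 0.90 after 24 h. It was thus 2-fold above Pre at 3 h and 8 h, where 2.87% and 1.55% of all genes were 2-fold above Pre, and above sham by 0.40 to 0.57 at every time. Its difference from sham passed 2-fold at 1 h (1.44) and 8 h (1.18) when arrays were scaled to a common spread, and its value against Pre at 3 h was then 0.83, short of 2-fold.

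Slc29a4, which encodes a transporter of monoamines and nucleosides, read 0.42 in sham, -0.65 at 0 h, -0.09 after 1 h, -0.10 after 8 h and 0.74 after 24 h, with no value after 3 h. Its difference from sham at 0 h, -1.07, was past 2-fold, at rank 87 of 3586 from the lowest, while at 24 h it stood 0.33 above sham. Slc35a4 had 2 probes, of which 1 gave values at 3 h (0.50) and 24 h (0.48), against -0.11 on that probe in sham.

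In the remaining class, Slc22a23, a member of the organic ion carrier family, stood above Pre on all 6 arrays, sham included. It read 0.995 in sham, 0.53 at 0 h, 0.51 after 1 h, 0.75 after 3 h, 0.88 after 8 h and 1.24 after 24 h. The 24 h value was its 1 call against Pre, where 3.74% of all genes were 2-fold higher. Its difference from sham ran from -0.48 at 1 h to 0.24 at 24 h, and the 1 h value was 0.31 with arrays scaled to a common spread, so its direction against sham depended on the scaling.

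Slc27a2, which activates and takes up very long fatty acids, was low in sham (-0.73) and after 3 h (-0.995) and near Pre at 0 h (0.07), 1 h (-0.17) and 8 h (-0.06), with -0.39 after 24 h. Slc27a1, the fatty acid transport protein of muscle and fat, by contrast kept between -0.17 and 0.09 on the paced arrays, against 0.07 in sham. Slc51a, the alpha subunit of a bile acid and steroid exporter, read between -0.13 and 0.14 on 4 paced arrays, against 0.50 in sham. Its values at 0 h and 24 h rest on 1 of its 2 probes, which read 0.70 in sham. On that probe the differences from sham were -0.83 at 0 h and -0.56 at 24 h. Slc22a17, a lipocalin receptor, differed from sham by at most 0.16.

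Against Pre alone, called carriers were few: 0 of 37 in sham, 1 of 36 at 0 h (Slc20a1), 0 of 36 after 1 h, 1 of 34 after 3 h (Slc35f5), 1 of 37 after 8 h (Slc35f5) and 1 of 35 after 24 h (Slc22a23), all higher. The shares of all genes called against Pre in either direction were 4.07%, 2.11%, 0.77%, 5.37%, 2.22% and 5.3%, and the higher calls alone took 1.4% at 0 h. At 1.5-fold 4 of 37 carriers passed in sham (19.9% of all genes), 6 of 36 at 0 h (9.84%), 2 of 36 after 1 h (2.71%), 5 of 34 after 3 h (18.2%), 4 of 37 after 8 h (6.56%) and 6 of 35 after 24 h (17.4%).

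Set beside other transport genes, the 17 mitochondrial Slc25a carriers had 1 call from sham of 17 measured at 0 h and 1 of 17 after 1 h, both higher. They had none of 14 after 3 h, 17 after 8 h or 16 after 24 h. The 28 pump and ABC transporter genes had 1 call of 27 at 0 h (3.7%), 0 of 28 after 1 h and 1 of 27 after 3 h (3.7%). They had 2 of 28 after 8 h (7.14%) and 2 of 26 after 24 h (7.69%), and all their calls were lower. Of all genes 6.5%, 1.54%, 2.43%, 3.66% and 5.98% were called at these times, so the contrast rests on 1 or 2 genes at a time. With 1 array per group the difference between these groups was not tested.

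Markers of muscle and of other cells were set beside these results. Of 10 muscle markers 9 were on the array, and 1, Casq1, was called, at 24 h (-1.04 against sham). Ckm, Myh4 and Atp2a1 stood above sham on all 5 paced arrays, by at most 0.78. Acta1, Mb, Tnnc2 and Pvalb stood below sham on all 5, by at most 0.55 in size, and Tnnt3 went both ways. Of the leukocyte list 3 of 9 genes were on the array: Ptprc was below sham where measured, by 0.33 to 0.91 in log2 units, while Laptm5 was above it by 0.34 to 0.55. The endothelial gene Cdh5 was called higher at 3 h (1.19 from sham, 0.32 against Pre), and the other 2 of the 3 endothelial genes on the array (of 5 listed) were not. Fabp4, the 1 of 7 adipocyte genes on the array, differed from sham by at most 0.52 in size. With arrays scaled to a common spread, Casq1 at 24 h (-0.97) and Cdh5 at 3 h (0.86) fell short of 2-fold, Casq1 passed it at 1 h (-1.23) and 8 h (-1.39), and Ptprc at 8 h stood at 0.02 from sham. Of 8 red cell genes 2 were on the array, Hba-a1 and Slc4a1, and of 4 Schwann cell and nerve genes none. The part of these cell types in the carrier values was not tested, and fewer cells of a type and less RNA per cell cannot be told apart in bulk muscle.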

How the data were processed

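For each array the authors deposited log10 ratios, 1 for each of 13872 probes; what the authors did before deposit (scanner, background, normalisation) is not given in the sources used here, and the log base was read from rounding residues in the values. Values within 1e-12 of 0 and values shared within a run of 289 probes were treated as not measured (201 zeros and 154 shared values in sham, 1762 zeros and 2 shared values at 0 h); that choice was made after the values had been seen. Sham alone had empty cells, 485 of them. Ratios were converted to log2 and centred on each array's median. Measured probes annotated with a single symbol were averaged per gene; all 38 member genes matched the RefSeq gene table (GRCm38.p6) by gene ID, used for names, and promoter sequences came from a separate RefSeq promoter table with entries for 27 of them. Differences were paced minus sham, with a call at 2-fold; there is no p-value, since each group had 1 array, and their number limits the precision. Calls and their background cover genes measured on both arrays of a comparison, medians those measured on all 6.

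All values on 6 arrays were to be given for carriers 2-fold from sham or Pre and for the widest-ranging carrier of each class; others, such as Slc2a4, Slc38a2, Slc16a1, Slc40a1 and Slc17a7, were singled out after their values were seen. The members and gene lists were chosen with earlier results of these data known. Alternatives kept zeros and shared values, scaled arrays to a common spread, left out or changed the centring, changed how probes were averaged, and used 1.5-fold. Steps were tested on simulated data that had less noise than the arrays, offsets larger than 2-fold and no missing values. That test does not show how reliable 2-fold calls are on these arrays. Python 3.11.15, numpy 2.4.6, pandas 2.3.3 and matplotlib 3.10.9 were used. Probes can bind transcripts of close relatives, so values of family members are uncertain.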

Additional observations from a re-analysis of the deposited data

How the results depend on the processing

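The 6 calls against sham kept their direction under every alternative that gave a value, and all but Slc11a2 at 0 h (-0.99 with arrays scaled to a common spread) stayed past 2-fold: Slc20a1 ran from 1.03 to 1.63 at 0 h and from 1.04 to 1.52 after 8 h, Slc16a3 from -1.77 to -1.48 after 8 h and from -1.40 to -1.13 after 24 h, and Slc29a4 from -1.07 to -1.05. Slc11a2, Slc16a3 and Slc29a4 had 1 probe each, so settings that changed the averaging of probes or used probes measured on both arrays could not move their values. Requiring 2 or more measured probes gave these genes no value. Counts of called carriers were small and moved easily. At 1.5-fold they were 9 at 0 h, 1 after 1 h, 2 after 3 h, 5 after 8 h and 6 after 24 h against sham, and 4 in sham, 6 at 0 h, 2 after 1 h, 5 after 3 h, 4 after 8 h and 6 after 24 h against Pre, as a lower threshold must give. With genes of 2 or more measured probes they were 1 at 0 h, 1 after 8 h and 0 after 24 h against sham, and 0 after 3 h, 8 h and 24 h against Pre, since fewer genes were counted. With arrays scaled to a common spread they were 2 at 0 h (Slc11a2 lost), 2 after 1 h and 3 after 8 h (Slc35f5 gained) against sham, and 3 at 0 h, 3 after 1 h, 0 after 3 h and 4 after 8 h against Pre. With zeros and shared values kept they were 0 at 0 h against Pre, where Slc20a1 then read 0.85, and 2 at 3 h. Without centring the count against Pre was 2 at 3 h, and with the median of a gene's probes 2 at 8 h. The median difference from sham changed sign between settings at 0 h (-0.03 to 0.26), 1 h (-0.02 to 0.03), 8 h (-0.03 to 0.07) and 24 h (-0.13 to 0.15), so no direction is given for it. One alternative, the median over genes measured on both arrays, was added after seeing the data. No paired analysis was possible because each group has 1 array. Without signals, what depth limits could not be set.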
